A study of Homo sapiens with 8 samples.

Results

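The genes described here are 39 genes of the unfolded protein response and the integrated stress response, taken by symbol from a table of 26475 genes. All 39 were found in the table, and all 39 passed the filter on low counts that left 14008 genes for testing. The 8 RNA-seq samples are of the human breast cancer line BT474, an established line of luminal type with amplified ERBB2. The labels call 4 samples NPY1R high and 4 NPY1R low, where NPY1R encodes the neuropeptide Y receptor Y1. The labels name no drug, other agent, engineered allele or time for either group, and they do not say how high and low cells were separated. The series title places the cells in a study of cells that tolerate lapatinib, an inhibitor of ERBB2 and EGFR. All values describe 1 cell line, and the labels do not say whether the 4 replicates of a group came from separate cultures, so p-values measure the spread between these samples, which may be technical.

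The endoplasmic reticulum (ER) folds secreted and membrane proteins, and unfolded proteins in it activate the sensors ATF6, IRE1 (gene ERN1) and PERK (gene EIF2AK3). ATF6 and XBP1, whose mRNA IRE1 splices, raise the transcription of ER chaperones and of genes that send misfolded proteins for degradation. PERK and 3 related kinases phosphorylate the translation factor eIF2 alpha, which lowers protein synthesis while translation of ATF4 increases. ATF4 then raises genes for serine, asparagine and cysteine synthesis and for feedback on the stress itself, and this arm is called the integrated stress response. Secretory epithelia, the breast among them, use these genes for protein export, and XBP1 is also a target of the estrogen receptor in luminal breast cancer cells.

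Library totals ranged from 18025648 to 30609791 estimated counts. Levels are given as CPM (counts scaled to a common library total, adjusted by the scaling factors of edgeR), and differences as the log2 of NPY1R high over NPY1R low from edgeR's quasi-likelihood test. A gene was called at a Benjamini-Hochberg adjusted p, taken over all tested genes, under 0.05. NPY1R followed the labels at 857 ± 170 CPM (SD, n = 4) in the high and 95.5 ± 5.65 CPM (SD, n = 4) in the low samples, with no overlap. Luminal keratins were abundant in both groups, with KRT8 at means of 1511 and 1428 CPM. Of 10 luminal markers, 2 (20%) were called higher in the high samples, beside 5.78% of all tested genes. EPCAM was the 1 (10%) called lower, beside 7.81%, at means of 221 and 273 CPM and a difference of -0.30 (adjusted p = 0.00436 from edgeR). Of 12 markers of other cell types, 4 had enough counts for a test, and 0 of these were called. Their log2 differences were from -0.59 to 0.01 with a median of -0.31. In edgeR's test 2 had an unadjusted p under 0.05, beside 3673 of all 14008 tested genes. The summed level of the 12 was 28.9 to 42.7 CPM in the high and 32.7 to 44.2 CPM in the low libraries, and CD3E, KRT14 and PDGFRB were at 0. All 12 genes of a list of G2 and M phase markers were called lower in the high samples, with summed levels of 1209 to 1534 CPM against 2370 to 2547 CPM. The part of this in the results that follow was not tested. In bulk RNA, fewer cells that express a gene and less of its RNA per cell cannot be told apart.

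Of the 39 genes, 8 were lower and 1 was higher in NPY1R high than in NPY1R low samples, and 30 were not called. The 8 lower genes were TRIB3, PSAT1, DNAJC3, SEL1L, PHGDH, MTHFD2, XBP1 and EIF2AK3, and their levels were 1.18-fold (DNAJC3) to 1.36-fold (TRIB3) higher in the low samples. STC2, which encodes the secreted glycoprotein stanniocalcin 2, was the only one called higher and stood 1.99-fold above its level in the low samples. The 8 lower genes make 20.5% of the 39, beside 7.81% of all tested genes called lower, and the 1 higher gene makes 2.56% beside 5.78% called higher. The 39 genes were chosen with earlier results of these data known, so these shares are not an independent comparison. In either direction 13.6% of all tested genes were called. Most of the 39 are abundant: 32 had a mean of at least 20 CPM, and 8 of these, or 25%, were called lower beside 10.3% of the 7341 tested genes at that level. The count of lower genes depended on the scaling of the libraries. It was 3 with upper-quartile factors, where 5.59% of all tested genes were lower, and 5 with library totals, beside 5.76%. It was 6 with median-of-ratios factors, beside 6.46%. When edgeR scaled to any of the 7 other libraries as reference it was 5 or 6, beside 6.18% to 6.37%. STC2 stayed the 1 higher gene with upper-quartile factors and library totals, so 3 or 5 lower stood beside 1 higher. Over all tested genes the split then moved from 810 higher and 1094 lower to 1009 and 783 or to 949 and 807.

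The 39 differences were mostly small and below 0. Their median was -0.16 on the log2 scale beside -0.03 for all tested genes, with 30 of 39 below 0, and 26 of 39 with upper-quartile factors, where the medians were -0.10 and 0.03. The libraries of the groups did not overlap for 10 of the genes. For 9 the 4 high samples lay below the 4 low samples, or 23.1% beside 11.4% of all tested genes, and for STC2 they lay above, beside 8.77%. Non-overlap in either direction was seen for 20.2% of all tested genes. Summed over the 39 genes, the level was 6030 to 7004 CPM in the high and 6757 to 7705 CPM in the low libraries, so the sums overlapped.

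**Figure D1:**
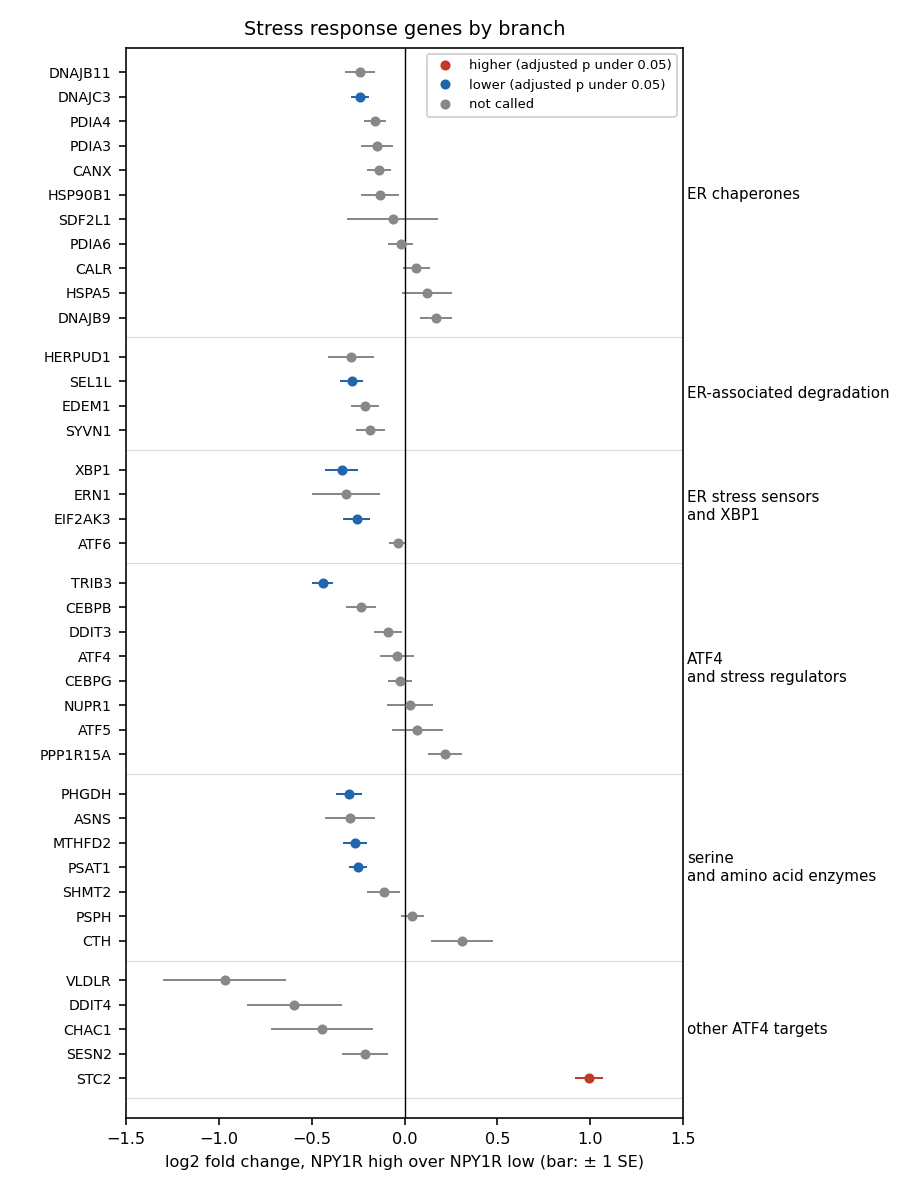
Difference of each of the 39 genes between NPY1R high and NPY1R low samples (x axis, log2 of high over low, with bars of 1 standard error, 4 samples a group), grouped into 6 branches of the stress response. Red marks the 1 gene called higher, blue the 8 called lower and grey the 30 not called; 30 points lie left of 0.

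Among the 11 ER chaperones and folding enzymes, DNAJC3 fell, and the other 10 were not called. The median difference was -0.13, with 8 of 11 below 0, of which PDIA6 changed sign with all other scalings tried. DNAJC3 (chr13:95677139-95794988, GRCh38.p14, as all positions here) encodes a cochaperone of the ER lumen that is also known as an inhibitor of PERK. It was at 91.9, 92.3, 95.2 and 86.3 CPM in NPY1R high replicates 1 to 4 and at 108.3, 104.3, 108.9 and 110.2 CPM in NPY1R low replicates 1 to 4, an order of replicates used throughout. The highest high sample lay below the lowest low sample, and the difference was -0.24 (SE 0.05; adjusted p = 0.00957). The adjusted p of DNAJC3 was 0.0797 without NPY1R high replicate 4, 0.0709 without NPY1R low replicate 1, 0.0502 without NPY1R low replicate 4, 0.0504 with upper-quartile factors and 0.0509 with no filter on low counts.

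HSPA5 encodes BiP, the main Hsp70 chaperone of the ER and the usual readout of ER stress. It stood at 163.4, 172.1, 232.5 and 227.9 CPM in the high and 163.3, 161.6, 200.3 and 206.9 CPM in the low samples. The groups overlapped, and replicates 3 and 4 were above replicates 1 and 2 in both. Its difference was 0.12 (SE 0.13; adjusted p = 0.649). DNAJB11, another BiP cochaperone, had a difference as large as that of DNAJC3 and a wider spread, at 52.9, 48.5, 61.3 and 53.9 CPM against 60.1, 65.1, 61.5 and 69.2 CPM. NPY1R high replicate 3 reached into the range of the low samples, and the difference was -0.24 (SE 0.08; adjusted p = 0.0805). DNAJB11 was called lower in 4 of 29 alternatives. Among these was an edgeR fit with a term that separates replicates 1 and 2 from replicates 3 and 4, at adjusted p = 0.0283. HSP90B1 (GRP94), the disulfide isomerases PDIA3, PDIA4 and PDIA6, the lectin chaperones CALR and CANX, and DNAJB9 and SDF2L1 had log2 differences from -0.16 (PDIA4) to 0.17 (DNAJB9). PDIA3 shares sequence with the pseudogene PDIA3P1, so its count is less certain.

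The ER stress response element, which ATF6 and XBP1 bind, is the sequence CCAAT and CCACG with 9 bases between them. It was searched on both strands of the 250 bases upstream of the annotated starts in RefSeq (GRCh38.p14), where 35 of the 39 genes have a window; NUPR1, PDIA3, PSPH and SHMT2 have none. A match was found for 6 of the 35 genes (17.1%) and for 25 of 27305 genes with a window (0.0916%). The 6 were HSPA5, HSP90B1, CALR, CANX, PDIA6 and XBP1, and XBP1 alone of them was called between the groups. A shorter element, ATTGG and CCACG with 1 base between, was found for HERPUD1 and SDF2L1 (2 of 35, 5.71%, beside 18 of 27305, 0.0659%). The windows of HSPA5, the standard reporter of ER stress, of CALR and of XBP1 are shown beside those of HERPUD1 and SDF2L1 because these genes carry the elements and only XBP1 of them was called. Each is written 5′ to 3′ on the strand of the gene, and capitals mark the matched element with the bases inside it.
HSPA5 (chr9:125241371-125241429, minus strand): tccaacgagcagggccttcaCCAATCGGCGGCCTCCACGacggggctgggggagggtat
CALR (chr19:12938364-12938422, plus strand): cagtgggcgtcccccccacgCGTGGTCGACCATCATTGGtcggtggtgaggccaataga
XBP1 (chr22:28800583-28800641, minus strand): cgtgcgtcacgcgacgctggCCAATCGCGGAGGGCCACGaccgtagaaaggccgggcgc
HERPUD1 (chr16:56932005-56932055, plus strand): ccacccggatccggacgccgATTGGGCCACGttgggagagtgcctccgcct
SDF2L1 (chr22:21642094-21642144, plus strand): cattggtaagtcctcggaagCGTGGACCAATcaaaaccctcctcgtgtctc
In CALR and SDF2L1 the match is on the opposite strand, so the capitals show its reverse complement. The 5 genes had log2 differences of 0.12 (HSPA5), 0.06 (CALR), -0.34 (XBP1), -0.29 (HERPUD1) and -0.06 (SDF2L1). Genes with an element in this window thus had values on both sides of 0. A match describes letters, not binding.

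All 4 genes of ER-associated degradation had lower means in NPY1R high samples, with a median difference of -0.25, and SEL1L was the 1 called. SEL1L (chr14:81471547-81533853) encodes the adaptor of the ubiquitin ligase that draws misfolded proteins out of the ER. It was at 296.8, 290.7, 321.8 and 319.98 CPM in the high and 349.8, 357.5, 385.7 and 403.2 CPM in the low samples. No high sample reached the lowest low sample, and the difference was -0.28 (SE 0.06; adjusted p = 0.0134). The adjusted p was 0.0556 without NPY1R high replicate 4, 0.0548 without NPY1R low replicate 4 and 0.073 with upper-quartile factors. SYVN1, the ligase itself, differed by -0.18 (SE 0.08; adjusted p = 0.17). Its span overlaps MRPL49, a gene with many more counts, and whether strand was used in the counting is not given in the sources used here, so its value is less certain.

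HERPUD1, a membrane component of the same complex, was at 69.6, 69.4, 93.5 and 86.5 CPM in the high and 86.8, 85.8, 103.6 and 113.6 CPM in the low samples. Replicates 3 and 4 were above replicates 1 and 2 in both groups, and the groups overlapped, with a difference of -0.29 (SE 0.12; adjusted p = 0.168). EDEM1, which recognises trimmed glycans on misfolded proteins, differed by -0.21 (SE 0.08; adjusted p = 0.102). When the fit held a term that separates replicates 1 and 2 from replicates 3 and 4, both passed the test, at adjusted p = 0.00182 (HERPUD1) and 0.0228 (EDEM1).

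The 4 genes of the sensors and XBP1 had a median difference of -0.29. XBP1 and EIF2AK3 fell, while ATF6 at -0.04, whose sign turned with upper-quartile factors, and ERN1 at -0.31 were not called. XBP1 (chr22:28794560-28800569), the transcription factor of the IRE1 branch, was at 745.3, 710.3, 896.00 and 836.99 CPM in the high and 983.8, 908.01, 1016.7 and 1119.98 CPM in the low samples. The highest high library lay just under the lowest low library, 896 against 908 CPM, and the difference was -0.34 (SE 0.09; adjusted p = 0.0308). These are totals per gene, so spliced and unspliced XBP1 mRNA are not told apart.

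EIF2AK3 (chr2:88556741-88628145), which encodes PERK, was at 39.99, 40.01, 42.9 and 41.1 CPM in the high and 46.9, 44.4, 51.5 and 53.3 CPM in the low samples. Its 4 high values lay within 2.93 CPM of each other, and the difference was -0.26 (SE 0.07; adjusted p = 0.0398). Both calls depended on the library that edgeR takes as reference for its scaling, by default NPY1R low replicate 4. When edgeR was given any of the 7 remaining libraries, the adjusted p was 0.0584 to 0.0682 for XBP1 and 0.0858 to 0.0988 for EIF2AK3, and neither was called. Leaving out any 1 of NPY1R high replicates 1, 2 and 4 and NPY1R low replicates 1, 3 and 4 also ended both calls, as did leaving out NPY1R high replicate 3 for EIF2AK3, with adjusted p up to 0.105 (XBP1) and 0.167 (EIF2AK3). The differences stayed below 0 in all 29 alternatives, from -0.38 to -0.25 for XBP1 and from -0.30 to -0.18 for EIF2AK3.

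Of 8 genes for ATF4 and the regulators around it, TRIB3 fell, and the other 7 were not called. The median difference was -0.03, the same to 2 decimals as over all tested genes. TRIB3 (chr20:380760-397559), a pseudokinase induced by ATF4 and CHOP that restrains ATF4 in return, was at 114.1, 98.7, 114.2 and 112.8 CPM in the high and 149.99, 144.4, 149.7 and 152.8 CPM in the low samples. The groups were well apart, 109.96 ± 7.51 against 149.2 ± 3.50 CPM (mean ± SD, n = 4 each), and the difference was -0.44 (SE 0.06; adjusted p = 0.000772). TRIB3 was called under all 29 alternatives, with adjusted p up to 0.0398 and a log2 difference from -0.46 to -0.39.

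ATF4, the central factor of the response, is controlled largely at translation, which RNA levels do not show. Its mRNA was at 304.6, 299.98, 367.97 and 349.00 CPM in the high and 316.3, 307.8, 350.5 and 385.6 CPM in the low samples. The groups overlapped, with a difference of -0.04 (SE 0.09; adjusted p = 0.84) whose sign turned with upper-quartile factors. DDIT3, which encodes the factor CHOP, was at 28.8, 32.5, 30.5 and 27.97 CPM against 31.01, 30.4, 31.7 and 34.5 CPM, again overlapping, with a difference of -0.09 (SE 0.07; adjusted p = 0.522).

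CEBPB, a partner of ATF4 in DNA binding, did not overlap between the groups, at 23.4, 19.8, 22.8 and 22.5 CPM in the high and 23.8, 26.97, 26.9 and 26.4 CPM in the low samples. The gap between the groups was 0.46 CPM, and its difference of -0.24 (SE 0.08; adjusted p = 0.0903) was not called. PPP1R15A, whose product GADD34 removes the phosphate from eIF2 alpha, had a positive difference of 0.22 (SE 0.09; adjusted p = 0.157). ATF5, CEBPG and NUPR1 had differences between -0.02 and 0.07. CEBPB and ATF5 overlap the annotated spans of CEBPB-AS1 and NUP62.

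The amino acid response element, to which ATF4 and C/EBP dimers bind, was searched as TGATGNAA in the same windows. It was found for ASNS, CEBPG, CHAC1 and HERPUD1, which is 4 of 35 genes (11.4%) beside 1061 of 27305 (3.89%). HERPUD1 was the only gene of the 35 with this and an ER stress element, and the matches do not overlap. The windows of ASNS, where this element was first described, and of CHAC1, CEBPG and HERPUD1 are shown with the element in capitals.
ASNS (chr7:97872449-97872496, minus strand): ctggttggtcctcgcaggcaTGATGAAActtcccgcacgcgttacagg
CHAC1 (chr15:40953242-40953289, plus strand): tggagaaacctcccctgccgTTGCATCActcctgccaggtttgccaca
CEBPG (chr19:33374051-33374098, plus strand): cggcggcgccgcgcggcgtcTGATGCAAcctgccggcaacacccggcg
HERPUD1 (chr16:56931946-56931993, plus strand): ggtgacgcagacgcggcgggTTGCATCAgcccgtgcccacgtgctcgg
In CHAC1 and HERPUD1 it lies on the opposite strand. None of these 4 genes was called, and their log2 differences were -0.30 (ASNS), -0.44 (CHAC1), -0.29 (HERPUD1) and -0.02 (CEBPG), the last with a sign that turned in 16 of 29 alternatives. Of the 9 genes called between the groups, all have a window and XBP1 alone has a match to any element searched. A palindromic estrogen response element, GGTCA and TGACC with 3 bases between, was found in 0 of the 35 windows and in 14 of 27305 (0.0513%).

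The 7 enzymes of serine, one-carbon and amino acid synthesis held 3 lower genes, PHGDH, PSAT1 and MTHFD2, and had a median difference of -0.25. PHGDH and PSAT1 catalyse the first and second steps from a glycolytic intermediate to serine, and PSPH catalyses the last. PHGDH (chr1:119711934-119744215) was at 76.4, 70.7, 67.7 and 78.03 CPM in the high and 93.3, 95.9, 90.6 and 81.03 CPM in the low samples. NPY1R low replicate 4 was the lowest low sample and lay 3.00 CPM above the highest high sample, and the difference was -0.30 (SE 0.07; adjusted p = 0.0181). The adjusted p was 0.0574 and 0.0663 without NPY1R high replicates 2 and 3, and 0.0709, 0.051 and 0.051 without NPY1R low replicates 1, 2 and 3.

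PSAT1 (chr9:78297125-78330093) was at 85.2, 88.4, 88.00 and 85.6 CPM in the high and 98.02, 104.2, 102.96 and 107.7 CPM in the low samples. The high samples lay within 3.19 CPM of each other and 9.63 CPM below the lowest low sample, and the difference was -0.25 (SE 0.05; adjusted p = 0.00678). Its call held in 28 of 29 alternatives and was lost without NPY1R high replicate 4, at adjusted p = 0.0572. PSPH was not called, at a mean of 56.8 ± 3.71 against 55.2 ± 1.40 CPM and a difference of 0.04 (SE 0.06; adjusted p = 0.754).

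MTHFD2 (chr2:74198615-74217565) encodes a mitochondrial folate enzyme downstream of serine. It was at 236.6, 240.1, 257.1 and 240.6 CPM in the high and 271.9, 277.6, 299.2 and 324.3 CPM in the low samples. The 4 high samples lay below the 4 low samples, with a difference of -0.27 (SE 0.06; adjusted p = 0.0205). The call was lost in 15 of 29 alternatives, with adjusted p up to 0.117: when any library except NPY1R low replicates 1 and 2 was left out, with 5 of the 7 other reference libraries, with upper-quartile factors, library totals and no filter on low counts, and at a threshold of 0.01. MTHFD2 overlaps the span of SLC4A5. SHMT2, the mitochondrial enzyme that splits serine, had a difference of -0.11 (SE 0.09; adjusted p = 0.502).

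ASNS, asparagine synthetase, was at 52.6, 57.2, 63.1 and 62.5 CPM in the high and 58.99, 60.3, 80.8 and 88.7 CPM in the low samples. NPY1R low replicates 3 and 4 stood above the other 6 libraries, while low replicates 1 and 2 lay within the range of the high samples. The difference of -0.30 (SE 0.13; adjusted p = 0.196) was not called. ASNS was called lower in 2 of 29 alternatives by edgeR. The adjusted p was 0.0195 with the replicate term and 0.00729 with a replicate block and an offset for GC content. CTH, which makes cysteine from cystathionine, was at 3.23, 2.57, 2.86 and 3.08 CPM against 2.42, 2.03, 2.06 and 2.95 CPM, low in all libraries and overlapping. Its difference of 0.31 (SE 0.17; adjusted p = 0.287) ran opposite in sign to that of the 3 called enzymes.

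**Figure D2:**
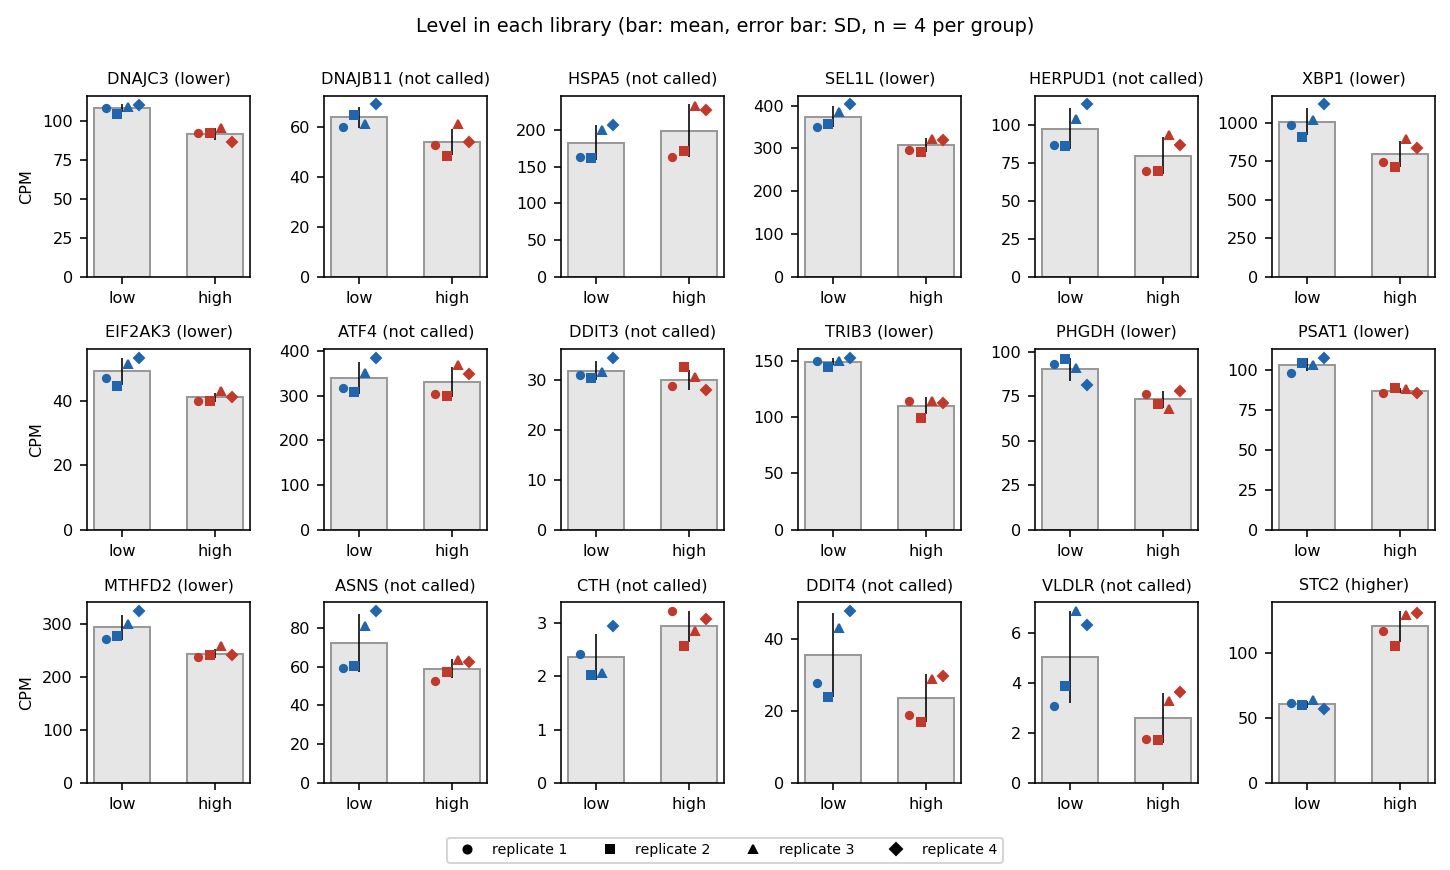
Level of 18 of the genes in each library (y axis, CPM, from 0), with bars for the group mean, error bars for 1 SD (n = 4) and 1 marker shape for each replicate number, NPY1R low left and NPY1R high right. The 4 high samples of STC2 lie above its 4 low samples; for TRIB3, PSAT1 and DNAJC3 they lie below, and for HSPA5, ATF4 and DDIT3 the groups overlap.

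The 5 other targets of ATF4 had differences from -0.97 to 0.99, and edgeR called 1 higher and 0 lower. At an unadjusted p under 0.05 there were 2 lower, VLDLR and DDIT4, and DESeq2 called VLDLR lower while limma-voom called 0. Of all 14008 tested genes, 3673 had an unadjusted p under 0.05 in either direction. DESeq2 called 7.77% of them lower and limma-voom 7.70%. STC2 (chr5:173314723-173328414) encodes a secreted glycoprotein that is induced by ATF4 in ER stress and by estrogen in breast cancer cells. It rose from 61.4, 60.2, 63.5 and 56.9 CPM in the low to 116.6, 105.1, 129.1 and 131.1 CPM in the high samples. The lowest high sample was 41.6 CPM above the highest low sample, and the difference was 0.99 (SE 0.08; adjusted p = 2.77e-05). STC2 was called in all 29 alternatives, with a log2 difference of 0.99 to 1.05. The estrogen receptor gene ESR1 was called higher in the high samples too, by 0.59 (SE 0.05, adjusted p = 7.23e-05). XBP1, also a target of the estrogen receptor, went the other way, at -0.34 (adjusted p = 0.0308 from edgeR), a call lost in many alternatives. The part of the ESR1 difference in the levels of STC2 and XBP1 was not tested.

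VLDLR, a lipoprotein receptor, had a difference near that of STC2 in size and opposite in sign, yet was not called. VLDLR, DDIT4 and CEBPB were chosen for values by library after their values were seen, and VLDLR overlaps the span of VLDLR-AS1. VLDLR was at 1.75, 1.71, 3.26 and 3.63 CPM in the high and 3.09, 3.85, 6.86 and 6.32 CPM in the low samples, from 46 to 161 counts a library. Among replicates 1 and 2, and likewise among replicates 3 and 4, the high samples were below the low samples, but high replicates 3 and 4 overlapped low replicates 1 and 2. The difference was -0.97 (SE 0.33; adjusted p = 0.086).

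DDIT4, whose product REDD1 inhibits mTORC1 and is also induced by hypoxia, was at 18.8, 16.9, 28.8 and 29.7 CPM in the high and 27.6, 23.7, 42.97 and 47.7 CPM in the low samples. Again the high samples were below the low samples among replicates 1 and 2 and among replicates 3 and 4, while high replicates 3 and 4 lay above low replicates 1 and 2, and the difference was -0.59 (SE 0.26; adjusted p = 0.175). Once the fit held a term for the 2 subsets of replicates (1 and 2, 3 and 4) the adjusted p was 0.000449 for VLDLR and 0.000372 for DDIT4. SESN2, a leucine sensor of the mTORC1 pathway, and CHAC1, which degrades glutathione, had differences of -0.21 (SE 0.12; adjusted p = 0.323) and -0.44 (SE 0.28; adjusted p = 0.365), with CHAC1 at 0.76 to 2.01 CPM over the 8 libraries.

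The division between replicates 1 and 2 and replicates 3 and 4 was seen in other genes of the set too. The labels name no batch, so this is a division by replicate number alone. Across genes, the deviation of a library from the mean of its group varied with the GC content of transcripts with a Spearman's rho of 0.55, 0.49, -0.07 and -0.64 in NPY1R low and of 0.49, 0.02, -0.51 and 0.17 in NPY1R high replicates 1 to 4. Its part in the shifts between replicates was not tested. In both groups, replicates 3 and 4 were both above replicates 1 and 2 for 16 of the 39 genes (41.0%), beside 12.0% of all tested genes. They were both below for 1 gene, SHMT2 (2.56%), beside 15.8%. The largest such shifts were those of VLDLR, by 0.96 in the high and 0.92 in the low samples on the log2 scale, and of DDIT4, by 0.71 and 0.82. HSPA5 shifted by 0.46 and 0.33, HERPUD1 by 0.37 and 0.33, and ATF4 by 0.25 and 0.24. For DDIT4, HSPA5, HERPUD1 and ATF4 these shifts were larger than the difference between NPY1R high and low.

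Within the subsets, high samples were below low samples in both replicates 1 and 2 and replicates 3 and 4 for 16 genes (41.0%), beside 16.8% of all tested genes. They were above in both subsets for HSPA5, PPP1R15A and STC2 (7.69%, beside 13.1%). The 9 called genes had the same direction in both subsets, which follows from the lack of overlap between their high and low samples. For TRIB3 the difference was -0.47 in replicates 1 and 2 and -0.41 in replicates 3 and 4, for XBP1 -0.38 and -0.30, and for STC2 0.86 and 1.11. The median over the 39 genes was -0.19 and -0.15. ASNS differed little in replicates 1 and 2, by -0.12, and more in replicates 3 and 4, by -0.43. CALR and SDF2L1 had opposite signs in the subsets, at -0.08 and 0.20 for CALR and at -0.57 and 0.56 for SDF2L1. Whether the subsets differ in these genes was not tested.

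**Figure D3:**
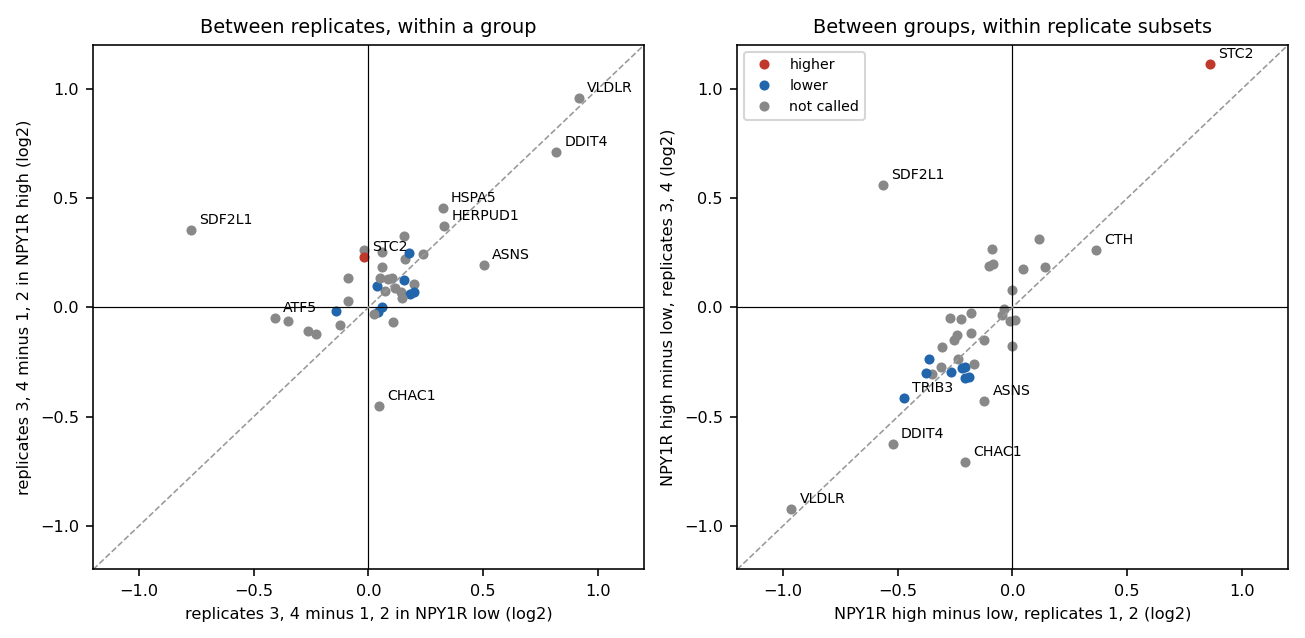
Left, the log2 difference of replicates 3 and 4 from replicates 1 and 2 in NPY1R low (x axis) and NPY1R high (y axis) samples; right, the log2 difference of NPY1R high from low in replicates 1 and 2 (x axis) and in replicates 3 and 4 (y axis), with 1 point for each of the 39 genes and lines at 0 and at equality. VLDLR and DDIT4 lie at the upper right on the left side and below 0 on both axes on the right side; STC2 stands alone at the upper right there.

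Other genes of these pathways, in lists chosen with earlier results of these data known, also lay mostly below 0. Of 138 such genes in 5 lists, 134 were tested, and 21 (15.7%) were lower and 2 (1.49%) higher in NPY1R high samples, with a median difference of -0.11 and 110 below 0. Over all 14008 tested genes 7.81% were lower, 5.78% higher and 7831 below 0. With upper-quartile factors 13 of the pathway genes were lower and 4 higher, beside 5.59% of all tested genes lower. Lower genes were most frequent among 25 further ATF4 targets, with 7 lower, and 41 genes of ER folding and export, with 9 lower, and neither list held a higher gene in edgeR's test at adjusted p under 0.05. At an unadjusted p under 0.05, 2 of the ATF4 targets were higher and 11 lower, and 1 of the export genes was higher and 15 lower. Over all 14008 tested genes 3673 had an unadjusted p under 0.05 in either direction. DESeq2 called 1 higher in each list, beside 1033 of all tested genes. Of 28 further sensors and transducers, 4 were lower and 2 higher.

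Among 20 further genes of ER-associated degradation, edgeR called 0. At an unadjusted p under 0.05 there were 4 lower and 2 higher, beside 3673 of all 14008 tested genes in either direction. DESeq2 called 1 higher, beside 1033 of all tested genes, and limma-voom called 1 lower, beside 1078. Of 20 genes for tRNA synthetases, which load amino acids onto tRNA, WARS was lower, by -0.29 (SE 0.06; adjusted p = 0.0106), and was chosen after its value was seen. The median over the synthetases was -0.08.

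The 4 lower genes with the largest changes at a mean of at least 5 CPM were CREB3L1, FAM129A, KDELR3 and VEGFA. CREB3L1 encodes an ER-anchored transcription factor released by the same proteases as ATF6. It was at 5.46, 3.94, 3.08 and 4.07 CPM in the high and 14.97, 11.5, 12.1 and 8.99 CPM in the low samples, with a difference of -1.52 (SE 0.20; adjusted p = 0.000793). KDELR3, a receptor that returns escaped chaperones to the ER, was at 11.6 ± 1.00 against 21.1 ± 1.10 CPM (mean ± SD, n = 4 each), a difference of -0.86 (SE 0.09; adjusted p = 0.000198). FAM129A, also called NIBAN1 and induced by ATF4, differed by -0.86 (SE 0.11; adjusted p = 0.000479). VEGFA, the angiogenic factor that ATF4 and hypoxia both induce, was at 49.05 ± 5.43 against 80.5 ± 14.3 CPM, a difference of -0.72 (SE 0.13; adjusted p = 0.00467). In each of the 4 genes all high samples lay below all low samples, and each was called in all 29 alternatives.

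The 2 higher genes were MBTPS1 and EIF2AK4. MBTPS1 encodes the site-1 protease that cuts ATF6 and was at 184.6 ± 2.90 against 160.7 ± 2.78 CPM, a difference of 0.20 (SE 0.04; adjusted p = 0.0109). EIF2AK4 encodes GCN2, the eIF2 alpha kinase that senses uncharged tRNA, and differed by 0.18 (SE 0.05; adjusted p = 0.0388). The other kinases that act on eIF2 alpha besides PERK, EIF2AK1 at -0.08 and EIF2AK2 at -0.15, were not called. The EIF2AK4 call was lost when any 1 library except NPY1R low replicate 4 was left out, with adjusted p up to 0.114.

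The calls among the 39 genes were of unequal firmness. STC2 and TRIB3 passed in all 29 alternatives and PSAT1 in 28, SEL1L in 25 and DNAJC3 in 24. PHGDH passed in 23, MTHFD2 in 14, XBP1 in 9 and EIF2AK3 in 7. The number of lower genes was 2 without NPY1R high replicate 4, beside 4.42% of all tested genes, and 3 without NPY1R low replicate 4, beside 7.51%, so in both cases the share of the 39 was near that of all tested genes. Without any other library it was 4 to 7, beside 4.80% to 6.51%. With the same replicate term in the fit it was 14, beside 12.0% of all tested genes, and with an offset for the GC content of transcripts it was 12, beside 10.9%.

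**Figure D4:**
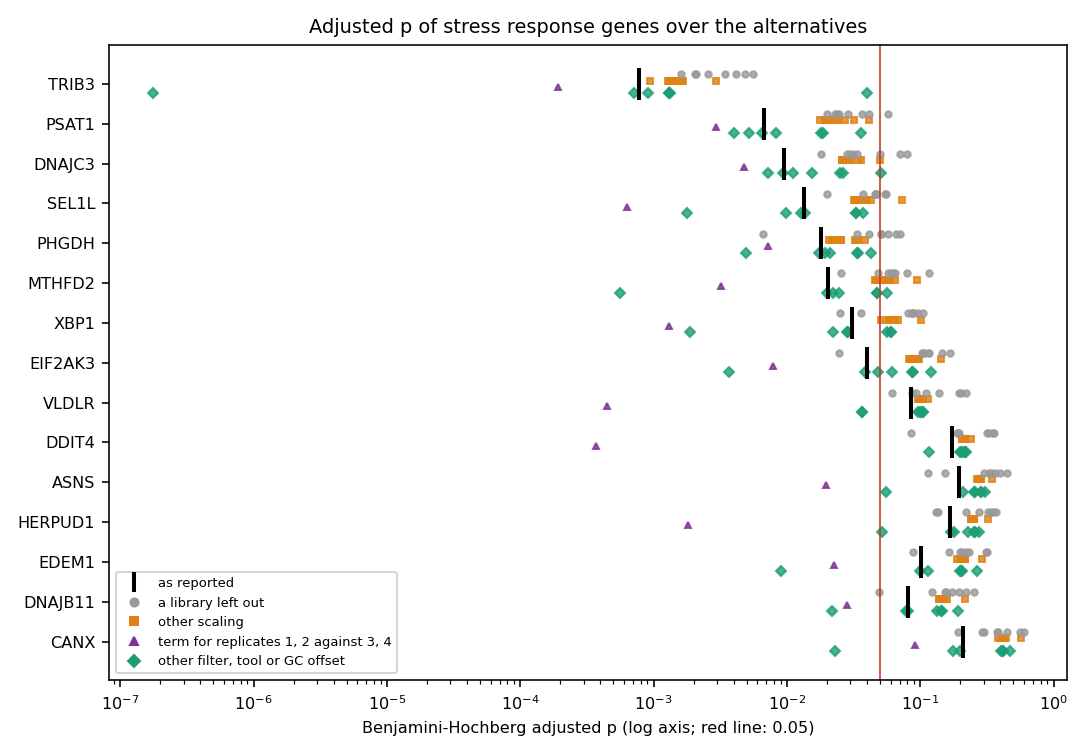
Benjamini-Hochberg adjusted p of 15 of the genes (x axis, log scale, with a red line at 0.05) as reported (black bar) and under the alternatives with 1 library left out (grey), another scaling (orange), the replicate term (purple) and another filter, tool or GC offset (green). The points of TRIB3 all lie left of the line, and those of XBP1 and EIF2AK3 on both sides. Those of VLDLR and DDIT4 lie right of it except with the replicate term and, for VLDLR, with DESeq2 and the GC offset. The edgeR fits with a replicate block are not drawn. In these, without and with the GC offset, the adjusted p was 0.00187 and 0.00269 for DDIT4 and 0.00403 and 0.00182 for VLDLR.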

How the data were processed

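The authors deposited estimated counts (expected counts, not scaled between libraries) for 26475 gene symbols in 8 libraries; reads were processed with STAR 2.5.2, RSEM 1.3.0 and hg38, per the submitters' processing notes, and the libraries were made from total RNA with a stranded kit, per the labels' protocols. RSEM divides reads among genes that share sequence, and 7.97% to 8.76% of the values in a library were not whole. Counts were rounded, genes with low counts were removed (filterByExpr, minimum count 10), libraries were scaled by TMM, and the 4 high samples were compared with the 4 low samples by edgeR 4.0.16 (quasi-likelihood test, R 4.3.3), with Benjamini-Hochberg adjustment over 14008 genes. The fits were also run on simulated counts, and the outcome is not given here. The 39 genes and all lists were chosen with earlier results of these data known.

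Values by library are given for every called gene, for HSPA5, XBP1, ATF4, DDIT3 and ASNS and for the gene with the largest absolute change of each branch. Of the wider lists, the 4 largest changes in each direction with a mean of at least 5 CPM are named; other genes were chosen after their values were seen. Alternatives were DESeq2 1.42.0, limma-voom 3.58.1, other scalings, references, filters and thresholds, robust shrinkage, a GC offset, a replicate block, a term for replicate numbers and leaving out each library. The 12 pairs of libraries within groups differed by more than sampling noise (chi-square per degree of freedom 5.75 to 62.2), so none was counted once for 2. Promoter windows came from RefSeq (GRCh38.p14).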

Additional observations from a re-analysis of the deposited data

Results flagged for a closer look

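In 4 cases a single library stood apart from the other 3 of its group, by a gap that took more of the group's range than Dixon's test allows at 95%. PDIA6 was at 215.8 CPM in NPY1R high replicate 3, beside 183.9 to 189.2 CPM in the others. CEBPB was at 23.8 CPM in NPY1R low replicate 1, beside 26.4 to 27.0 CPM. TRIB3 was at 98.7 CPM in NPY1R high replicate 2, beside 112.8 to 114.2 CPM, and without that library TRIB3 was still called lower, at a log2 difference of -0.39 and an adjusted p of 0.0016 from edgeR. SESN2 was at 9.47 CPM in NPY1R low replicate 4, beside 12.5 to 13.1 CPM. Chance alone gives about 1 such case in 20: of 78 groups of values tested, 4 stood apart where 3.9 would by chance.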

How the results depend on the processing

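Over 56 results and 29 alternatives, 1364 of 1624 values were kept. For a gene this means the same direction and side of the threshold, and for a count a change of at most 1.5 times. Of the others, 83 lost a call, 24 gained one, 98 counts moved by more than 1.5 times and 55 reversed in sign. All 55 were among genes that were not called. The cause of the changes was not tested. STC2 and TRIB3 kept their calls throughout. The reported fit did not treat the replicate numbers as pairs. The correlation of deviations between same-numbered high and low samples was 0.339, 0.157, 0.0907 and 0.0178, which does not decide whether they belong together. Replicates 3 and 4 were above replicates 1 and 2 in both groups for 16 of the 39 genes (41.0%), beside 12.0% of all tested genes. The reported fit leaves this shared shift in the spread within groups. With a replicate block, edgeR called 11 of the 39 genes lower and 1 higher. Over all tested genes 7.34% were then lower and 805 genes were higher. It called 1 gene of the wider lists higher, and it called 2 in ER-associated degradation and 3 among the other ATF4 targets. DDIT4 (adjusted p = 0.00187), VLDLR (0.00403) and HERPUD1 (0.0173) were gained, and EIF2AK4 (0.0773) was lost. Precision is limited by 4 libraries a group, and below 5 CPM (CHAC1, CTH, ERN1, SDF2L1, VLDLR) also by counts.

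Of the 39 genes, the number called lower (8) was 3 with upper-quartile factors and at an adjusted p under 0.01, 4 with no filter on low counts, 5 with library totals and with NPY1R high 1 to 4 or low 3 as reference, 14 with the term for replicates 1 and 2 against 3 and 4, 16 with replicate block and GC offset together, and 2 to 7 with a library left out. The number called higher (1) was 2 with block and GC offset together. The share of all tested genes called lower moved too, from 7.81% as reported. It was 4.01% at an adjusted p under 0.01, 4.05% with no filter, 5.59% with upper-quartile factors and 5.76% with library totals. With the references named it was 6.18% to 6.37%. With the replicate term it was 12.0%, with block and GC offset together 12.9%, and with a library left out 4.42% to 7.51%. Of all tested genes, 810 were higher as reported and 1179 with block and GC offset together.

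Of the wider lists, the number higher (2) was 0 at an adjusted p under 0.01, 4 with median-of-ratios, upper-quartile or library total factors, no filter, the GC offset and references high 1 and low 3, 5 with the filters of 1 CPM and of 10 counts in every library, DESeq2, block with GC offset and references low 1 and low 2, 6 with the replicate term, and 1 to 4 with a library left out. The number lower (21) was 13 with upper-quartile factors, library totals and no filter, and 11 at an adjusted p under 0.01. It was 33 with the replicate term, 40 with block and GC offset, and 11 to 19 with a library left out. Beside these stand the shares of all tested genes called lower given above, 12.0% with the replicate term and 12.9% with block and GC offset. Genes called higher over all 14008 tested also rose, from 810 as reported to 1205 with the replicate term and 1179 with block and GC offset. They were 1033 with DESeq2, 1009 with upper-quartile factors, 949 with library totals and 1007 with the GC offset. At an adjusted p under 0.01 they were 470, and with a library left out 624 to 1068.

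By branch, the ER chaperones called (1) were 0 with upper-quartile factors and no filter, 2 with the replicate term, 3 with the GC offset, 4 with block and GC offset and 0 to 2 with a library left out. In ER-associated degradation (1) they were 0 with upper-quartile factors and at an adjusted p under 0.01, 2 with the GC offset, 3 with block and GC offset or the replicate term and 0 to 1 with a library left out. Among the sensors and XBP1 (2) they were 0 with median-of-ratios, upper-quartile and library total factors, all 3 other filters, each of the 7 other references and an adjusted p under 0.01, 1 with DESeq2 and 0 to 2 with a library left out. Among ATF4 and its regulators (1) they were 2 with block and GC offset. Among the serine and amino acid enzymes (3) they were 1 at an adjusted p under 0.01 and 1 to 2 with a library left out. Among the other ATF4 targets (1) they were 2 with DESeq2 and the GC offset and 3 with block and GC offset and with the replicate term. Calls over all 14008 tested genes moved too, from 810 higher and 1094 lower as reported. They were 1007 and 1521 with the GC offset, 1205 and 1681 with the replicate term and 1179 and 1806 with block and GC offset. With DESeq2 they were 1033 and 1088, with upper-quartile factors 1009 and 783, and at an adjusted p under 0.01 470 and 562.

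Signs reversed for 7 genes whose log2 differences lay near 0. PDIA6 moved to 0.0045 (median-of-ratios), 0.033 (upper-quartile), 0.017 (library totals), 0.019 (no filter), 0.021 (the 1 CPM filter), 0.0202 (the 10 count filter), 0.0045 (DESeq2), 0.0092 (reference high 1), 0.0086 (reference high 2), 0.0037 (reference high 3), 0.0034 (reference high 4), 0.018 (reference low 1), 0.019 (reference low 2) and 0.012 (reference low 3), and to between -0.0497 and 0.0551 with a library left out. CEBPG moved to 0.0014 (median-of-ratios), 0.029 (upper-quartile), 0.015 (library totals), 0.017 (no filter), 0.018 (the 1 CPM filter), 0.017 (the 10 count filter), 0.0016 (DESeq2), 0.0063 (reference high 1), 0.0055 (reference high 2), 0.00070 (reference high 3), 0.00025 (reference high 4), 0.016 (reference low 1), 0.016 (reference low 2) and 0.0087 (reference low 3), and to between -0.0526 and 0.0626. ATF6 moved to 0.017 (upper-quartile), 0.0036 (library totals), 0.0035 (no filter), 0.0051 (the 1 CPM filter), 0.0046 (the 10 count filter), 0.0028 (reference low 1) and 0.0035 (reference low 2), and to between -0.0517 and 0.0201. ATF4 moved to 0.012 (upper-quartile) and 4.1e-05 (the 1 CPM filter), and to between -0.0866 and 0.0603. SDF2L1 moved to 0.015 (GC offset), and to between -0.22 and 0.107. With a library left out, ATF5 lay between -0.0186 and 0.165 and NUPR1 between -0.0457 and 0.108.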

Other observations

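The wider lists held 16 further lower genes, which were chosen for this account after their values were seen. In ER folding and export these were, on the log2 scale, SEC24D at -0.52 and MIA3 at -0.41, which load and shape carriers that leave the ER, TXNDC5 at -0.36, PDIA5 at -0.27 and DNAJC10 at -0.26, which act on disulfide bonds, KDELR2 at -0.32, and the translocon-associated subunits SSR1 at -0.18 and SSR3 at -0.22. SEC24D was at 33.3, 30.6, 31.2 and 30.3 CPM in the high and 45.9, 42.9, 46.8 and 44.5 CPM in the low samples, with an adjusted p of 0.000412 by edgeR. Among sensors and transducers, CREB3L2 at -0.34 and CREB3L4 at -0.34, relatives of CREB3L1, and TMBIM6 at -0.37, an ER membrane protein that restrains IRE1, were lower.

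Among ATF4 targets, the amino acid transporters SLC1A4 at -0.30 and SLC1A5 at -0.39, the proline synthesis enzyme ALDH18A1 at -0.21 and the tRNA exporter XPOT at -0.26 were lower. GDF15, a secreted stress cytokine, had the largest difference of the 134 tested genes, -1.89 (SE 0.27; adjusted p = 0.00119) by edgeR, at a low level of 0.40 ± 0.14 against 1.46 ± 0.20 CPM (mean ± SD, n = 4 each).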
